A study of Homo sapiens with 34 samples.

Results

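Untreated HepG2 cells were compared with untreated SNU398 cells, gene by gene, on 4 Illumina expression arrays, 2 of each line, out of 34 arrays of the series. The arrays were chosen by their titles, which name the line and day 0, and no measured value entered the choice. HepG2 and SNU398 are both labelled as human hepatocellular carcinoma lines. HepG2 is widely used as a hepatocyte model and is often described as derived from a hepatoblastoma, and SNU398 was established from a poorly differentiated tumour. The other 30 arrays hold both lines, treated, at days 3, 10, 17 and 24, and SNU475 cells, untreated and treated. Treatment was SGI-110, a decitabine prodrug that blocks DNA methyltransferases, at 100 nM once a day for 3 days (72 h). Days 10, 17 and 24 therefore lie after the exposure, and "treated day" below includes them. Neither untreated group had received the drug, and each group is 1 cell line, so the line cannot be told apart from its culture, passage or array handling. The labels do not say that the 2 arrays of a line come from separate cultures, so the spread between replicate arrays may be technical. The p-values rest on that spread, pooled over all 34 arrays of the series and moderated across genes, not on these 4 arrays alone. The number of arrays limits the precision of every value.

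Hepatocytes secrete most plasma proteins and lipoproteins, and a network of liver-enriched transcription factors holds this program on. Liver tumours keep the program to different degrees. Well differentiated lines go on making albumin and apolipoproteins, and poorly differentiated lines lose them and often take on vimentin, collagens and other genes of mesenchymal cells. The comparison shows where these lines stand on that axis and what else separates them.

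Levels are log2 normalized intensities of the brightest probe of each gene. Signals of different probes are not comparable, so a level is set only against the same gene in the other line. Both arrays of a line had to exceed 6.974 (log2) for a probe to count as above background. In counts over all genes, on treated days and in SNU475, 1 such probe sufficed for its gene. Gene lists, markers, single genes and chromosomes were judged by the brightest probe alone. Where the probe of the dimmer line was not above background, the difference is given as a bound, "at least N-fold", with the dim arrays set no lower than 6.974. The replicate arrays correlated across genes with Pearson's r of 0.9933 in HepG2 and 0.9947 in SNU398, against 0.799 to 0.8006 between the lines (genes are not independent replicates). Of 15297 genes, 12 differed at least 2-fold between the HepG2 arrays and 8 between the SNU398 arrays. The 4 arrays share the percentiles of their deposited values, with medians between 182.91 and 183.

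A gene was called where the limma adjusted p was under 0.05 and the fitted difference was at least 2-fold. The fitted difference takes readings below background as they stand, so a called gene can have a bound under 2-fold. Examples from the lists below are KNG1 (1.23-fold), GNMT (1.42-fold), TAT (1.66-fold) and ABCG5 (1.77-fold), so the counts of calls are not counts of bounds of at least 2-fold. Of 15297 genes tested, 3710 were called, or 24.3% of them. The 1802 genes called higher in HepG2 are 11.8% of all genes, and the 1908 called higher in SNU398 are 12.5%. Every gene that differed at least 2-fold also passed the p-value threshold, so the fold threshold alone set these counts. Without it, 4123 genes were higher in HepG2 and 4823 in SNU398 at an adjusted p under 0.05. A fitted difference of at least 8-fold was reached by 418 genes in HepG2 and 308 in SNU398. Counting all probes of a gene, 10117 genes were above background in both lines, 1378 in HepG2 only, 1512 in SNU398 only and 2290 in neither. Of the genes above background in only 1 line, 742 were called higher in HepG2 and 803 in SNU398.

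**Figure D1:**
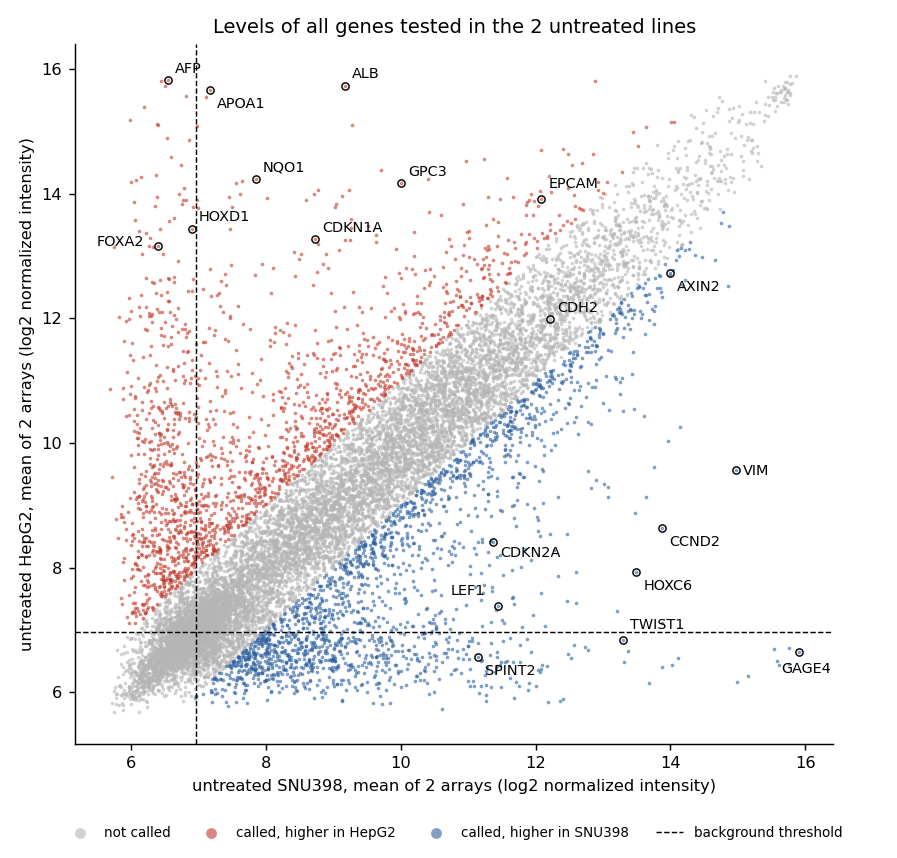
Each point is a gene, with its mean level over the 2 untreated SNU398 arrays on the x axis and over the 2 untreated HepG2 arrays on the y axis, both in log2 normalized intensity. Red and blue points were called, grey points were not, and dashed lines mark the background threshold of 6.974 (genes on the Y chromosome are not drawn). AFP, APOA1 and FOXA2 lie at the left edge, near or below background in SNU398, and GAGE4 and TWIST1 at the lower edge.

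The promoters of some liver genes that separate the lines are printed here, to show where letters that hepatocyte factors are known to bind lie in them. Sequences are from RefSeq (GRCh38.p14), 250 bases before to 50 bases after the gene start, 5′ to 3′ along the strand of the gene. The letters searched on both strands were GTTAATNAT (part of the HNF1 site), CAAAGTCCA (HNF4), TGANTCA (AP-1) and CATTCC (TEAD), and capitals mark a match. AFP (chr4:73435971-73436270, plus strand), SERPINA1 (chr14:94390586-94390885, minus strand), FGB (chr4:154562730-154563029, plus strand) and ALB (chr4:73404037-73404336, plus strand) are shown as the liver genes of a chosen panel that differed most among those with a promoter in the table. FGA (chr4:154590693-154590992, minus strand), AHSG (chr3:186612810-186613109, plus strand) and F10 (chr13:113122549-113122848, plus strand) were added after their matches were seen.
AFP: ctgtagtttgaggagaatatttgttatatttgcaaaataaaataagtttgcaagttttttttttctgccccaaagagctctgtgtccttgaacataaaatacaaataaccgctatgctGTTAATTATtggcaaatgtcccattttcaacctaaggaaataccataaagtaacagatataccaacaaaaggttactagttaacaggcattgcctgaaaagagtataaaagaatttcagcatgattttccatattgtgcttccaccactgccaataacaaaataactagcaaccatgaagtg
ALB: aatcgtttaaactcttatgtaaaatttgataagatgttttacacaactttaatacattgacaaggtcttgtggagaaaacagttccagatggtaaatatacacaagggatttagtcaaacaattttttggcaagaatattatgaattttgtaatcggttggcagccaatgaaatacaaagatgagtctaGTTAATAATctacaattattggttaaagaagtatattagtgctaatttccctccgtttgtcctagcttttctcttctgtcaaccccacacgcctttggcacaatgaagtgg
SERPINA1: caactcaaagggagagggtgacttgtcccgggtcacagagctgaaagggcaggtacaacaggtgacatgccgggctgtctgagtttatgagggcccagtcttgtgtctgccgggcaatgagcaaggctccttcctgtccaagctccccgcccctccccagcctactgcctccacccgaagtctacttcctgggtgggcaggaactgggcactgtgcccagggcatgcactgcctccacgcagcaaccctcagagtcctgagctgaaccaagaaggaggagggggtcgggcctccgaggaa
FGB: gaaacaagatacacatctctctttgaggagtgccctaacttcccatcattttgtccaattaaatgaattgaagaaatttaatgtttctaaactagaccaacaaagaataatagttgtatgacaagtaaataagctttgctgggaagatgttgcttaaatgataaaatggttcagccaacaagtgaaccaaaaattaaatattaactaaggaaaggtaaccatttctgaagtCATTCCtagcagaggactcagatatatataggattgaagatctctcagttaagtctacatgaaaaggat
FGA: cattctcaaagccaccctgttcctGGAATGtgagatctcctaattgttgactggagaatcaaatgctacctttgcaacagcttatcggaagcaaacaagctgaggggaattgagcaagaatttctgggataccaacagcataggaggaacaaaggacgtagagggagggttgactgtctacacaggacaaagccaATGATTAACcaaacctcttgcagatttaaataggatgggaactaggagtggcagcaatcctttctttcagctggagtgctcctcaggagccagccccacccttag
AHSG: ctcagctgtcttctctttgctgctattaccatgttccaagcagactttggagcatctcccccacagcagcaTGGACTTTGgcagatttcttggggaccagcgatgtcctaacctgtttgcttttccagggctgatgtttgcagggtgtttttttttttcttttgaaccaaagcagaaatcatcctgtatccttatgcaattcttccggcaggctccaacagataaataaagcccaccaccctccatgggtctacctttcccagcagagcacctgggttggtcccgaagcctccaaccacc
F10: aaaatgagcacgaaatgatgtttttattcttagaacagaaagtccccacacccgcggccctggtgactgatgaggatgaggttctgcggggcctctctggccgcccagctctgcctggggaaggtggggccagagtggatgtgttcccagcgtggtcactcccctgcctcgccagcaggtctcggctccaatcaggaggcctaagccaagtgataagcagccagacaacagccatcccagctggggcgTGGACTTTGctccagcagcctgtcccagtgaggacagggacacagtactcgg
The HNF1 letters begin at -132 from the gene start (base 0) in AFP and at -61 in ALB. In FGA they lie on the opposite strand at -55, beside TEAD letters at -226. The HNF4 letters lie on the opposite strand at -179 in AHSG and at -2 in F10. FGB holds TEAD letters at -19, and the printed window of SERPINA1 holds none of the 4. Sequence outside that window, including any other start of the gene, was not searched, so no conclusion is drawn about it.

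Among the genes called higher in HepG2, 17 of the 1395 with a promoter in the table held the HNF1 letters, or 1.22%. The share was 0.265% (4 of 1507) among genes called higher in SNU398 and 0.51% (61 of 11969) among all genes tested. The HNF4 letters were in 13 promoters (0.932%) of genes higher in HepG2, in 2 (0.133%) of genes higher in SNU398 and in 39 (0.326%) of all. The other letters were more common. AP-1 letters were in 6.02%, 4.78% and 5.1% of the same promoters, and TEAD letters in 13.5%, 11% and 11.1%. These shares describe the letters in this window and do not show binding.

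Genes of the hepatocyte secretory program were high in HepG2 and at or near background in SNU398. Of 32 listed plasma proteins 30 were tested, 26 were called higher in HepG2 and none in SNU398, where 0 also passed an unadjusted limma p under 0.05. Their median log2 difference was 5.92, or 5.62 with each gene that is at background in 1 line taken at its bound, against -0.03 and 0.00 over all genes. 29 of the 30 were above background in HepG2 and 3 in SNU398.

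AFP, the fetal serum protein used as a marker of liver cancer, read 15.86 and 15.80 on the HepG2 arrays and 6.77 and 6.33 on the SNU398 arrays. The SNU398 arrays lie below background, and AFP was at least 463-fold higher in HepG2 (log2 difference 9.28, SE 0.18, adjusted p = 1.2e-26). ALB, the main protein of adult plasma, read 15.69 and 15.79 on the HepG2 arrays and 9.03 and 9.33 on the SNU398 arrays. ALB stayed above background on both SNU398 arrays, 94.5-fold below HepG2 (log2 difference 6.56, SE 0.14, adjusted p = 2.3e-25), and its other probe gave a larger difference of 8.35.

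SERPINA1, the antiprotease that protects the lung, read 15.62 and 15.48 on the HepG2 arrays and 7.10 and 7.14 on the SNU398 arrays, 345-fold apart (log2 difference 8.43, SE 0.13, adjusted p = 3.1e-28). Its 3 probes did not give 1 size, since the other 2 gave log2 differences of 0.84 and 8.45. The thyroid hormone carrier TTR read 14.05 and 13.77 on the HepG2 arrays and 6.70 and 6.86 on the SNU398 arrays and was at least 122-fold higher in HepG2. SERPINA3 (at least 433-fold), an acute-phase antiprotease, AHSG (at least 343-fold), the mineral carrier fetuin-A, and TF (at least 382-fold), the iron carrier, gave bounds of the same order, with TF above background on 1 of the SNU398 arrays. The 4 members not called were HRG, at background in both lines, and A1BG, TFR2 and FETUB, with log2 differences of 0.33, 0.84 and 0.87.

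Clotting and complement genes were also higher in HepG2. 32 of 35 listed factors were tested, 28 were called higher in HepG2 and none in SNU398, where none passed an unadjusted limma p under 0.05 either, and the median log2 difference was 3.36 (3.05 with bounds). The 3 fibrinogen chains, whose genes lie side by side on chromosome 4, were all called. FGG read 15.09 and 15.28 on the HepG2 arrays and 5.93 and 6.06 on the SNU398 arrays. FGA read 15.05 and 15.13 on the HepG2 arrays and 6.57 and 7.40 on the SNU398 arrays, and FGB 14.56 and 14.62 on the HepG2 arrays and 6.63 and 6.57 on the SNU398 arrays. The lower bounds were 297-fold, 239-fold and 196-fold in that order, and FGA alone had a SNU398 array, and another probe, above background. C4BPB, a chain of the complement inhibitor C4b-binding protein, was at least 50.6-fold higher. Among factors still above background in SNU398, the complement component C5 read 13.05 and 13.14 on the HepG2 arrays and 9.12 and 9.05 on the SNU398 arrays, and the anticoagulant cofactor PROS1 read 12.03 and 12.52 on the HepG2 arrays and 11.17 and 11.14 on the SNU398 arrays, the smallest gap among the called factors that both lines expressed.

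All 17 tested genes of 21 listed for apolipoproteins and lipid export were called higher in HepG2, with a median log2 difference of 4.61 (3.93 with bounds), and no gene of the list passed an unadjusted limma p under 0.05 in the other direction. The bound of ABCG5 was only 1.77-fold. APOA1, the main protein of high-density lipoprotein, read 15.68 and 15.66 on the HepG2 arrays and 7.06 and 7.28 on the SNU398 arrays and was 363-fold higher (log2 difference 8.50, SE 0.18, adjusted p = 8.8e-26). APOA2 read 15.85 and 15.77 on the HepG2 arrays and 6.43 and 6.47 on the SNU398 arrays, a difference of at least 456-fold. APOB, the structural protein of very-low-density and low-density lipoprotein, read 15.04 and 15.19 on the HepG2 arrays and 6.36 and 6.41 on the SNU398 arrays (at least 282-fold higher, log2 difference 8.73, SE 0.12, adjusted p = 3.2e-29). APOH, the plasma beta-2-glycoprotein, was at least 158-fold higher. APOE, which many cell types make, kept a clear signal in SNU398, with 14.35 and 14.13 on the HepG2 arrays and 10.46 and 10.36 on the SNU398 arrays, and so did its neighbour APOC1, with 13.35 and 13.32 on the HepG2 arrays and 9.63 and 9.65 on the SNU398 arrays.

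**Figure D2:**
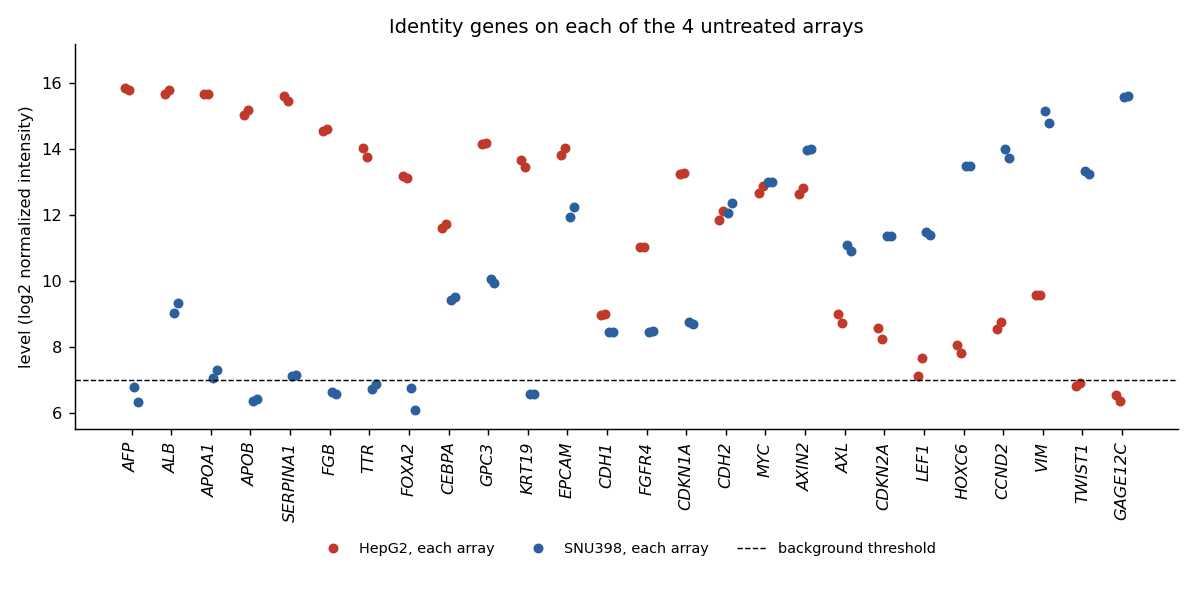
Points are the 4 single arrays (red, HepG2, blue, SNU398) for 26 genes, liver genes first and genes higher in SNU398 last, in log2 normalized intensity, with the background threshold dashed. Replicate points nearly coincide for most genes, liver genes from AFP to TTR fall to about background in SNU398 except ALB, and the points of the lines overlap for CDH2.

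Factors that drive this program were higher in HepG2 in part. 22 of 28 listed liver-enriched transcription factors were tested, 12 were called higher in HepG2 and none in SNU398 (1 at an unadjusted limma p under 0.05), with a median log2 difference of 1.26. FOXA2, a pioneer factor of endoderm, read 13.19 and 13.14 on the HepG2 arrays and 6.73 and 6.06 on the SNU398 arrays and was at least 73.1-fold higher in HepG2 (log2 difference 6.77, SE 0.19, adjusted p = 5.8e-23). Its relative FOXA3 read 11.72 and 11.91 on the HepG2 arrays and 7.20 and 7.31 on the SNU398 arrays and was 23.5-fold higher, whereas FOXA1, with 12.47 and 12.61 on the HepG2 arrays and 10.46 and 10.39 on the SNU398 arrays, was clearly expressed in both lines. NR0B2, the small heterodimer partner that represses bile acid synthesis, was at least 20.6-fold higher, and HHEX, a homeobox factor of liver buds, 5.36-fold. CEBPA, a factor that stops hepatocyte division, read 11.60 and 11.74 on the HepG2 arrays and 9.42 and 9.50 on the SNU398 arrays, a gap of 4.63-fold (log2 difference 2.21, SE 0.13, adjusted p = 2.6e-15). The acute-phase factor CEBPB (13.50 and 13.61 on the HepG2 arrays and 13.78 and 13.98 on the SNU398 arrays) and ONECUT2 (9.46 and 9.62 on the HepG2 arrays and 9.01 and 9.04 on the SNU398 arrays) were above background in both lines and not called.

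Metabolic genes of the hepatocyte were split. Of 24 tested of 30 listed genes of urea, amino acid and sugar metabolism, 13 were called higher in HepG2 and 2 in SNU398 (1 without HepG2 replicate 2), with a median log2 difference of 1.19. HPD and HGD are enzymes of tyrosine breakdown. HGD read 12.19 and 12.13 on the HepG2 arrays and 6.72 and 6.07 on the SNU398 arrays and was at least 36.4-fold higher, though another of its probes was above background in SNU398. HPD read 11.73 and 11.39 on the HepG2 arrays and 6.27 and 6.83 on the SNU398 arrays and was at least 24-fold higher. AGXT, a peroxisomal aminotransferase that removes glyoxylate, was at least 26.6-fold higher, and the liver glucose transporter SLC2A2 at least 5.97-fold. The urea cycle entry enzyme CPS1 read 10.50 and 10.64 on the HepG2 arrays and 8.25 and 8.21 on the SNU398 arrays. Against this direction, TDO2, the liver enzyme that opens tryptophan breakdown, read 6.67 and 6.55 on the HepG2 arrays and 9.21 and 9.04 on the SNU398 arrays. TDO2 was at least 4.44-fold higher in SNU398, and its other probe gave a log2 difference of only -0.52. NAGS, which makes the activator of CPS1, was 2.13-fold higher in SNU398, a call lost without HepG2 replicate 2 (log2 difference -0.98) and without background correction (-0.87).

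The bile acid and drug metabolism list had 31 tested of 41 listed genes, 15 called higher in HepG2 and none in SNU398 (2 at an unadjusted limma p under 0.05, and 1 called without HepG2 replicate 2 or without SNU398 replicate 2). Its median log2 difference was 0.69, 0.42 with bounds and 0.42 to 2.03 over the alternatives, with 2.03 when genes at background in both lines were left out. UGT2B10, a glucuronidating enzyme, read 11.93 and 12.14 on the HepG2 arrays and 6.28 and 6.26 on the SNU398 arrays and was at least 33.4-fold higher in HepG2. The steroid sulfotransferase SULT2A1 was at least 35.2-fold higher, the canalicular export pump ABCC2 at least 24.3-fold (1 SNU398 array above background), and CYP27A1, which opens the acidic pathway of bile acid synthesis, 19.1-fold. Some genes of adult liver were at background in both lines. CYP7A1, the rate-limiting enzyme of bile acid synthesis, read 6.35 and 6.14 on the HepG2 arrays and 5.88 and 6.46 on the SNU398 arrays, and CYP1A2 and CYP2C8 were also at background in both. AKR1D1, a reductase of bile acid synthesis, was above background in both, with 14.63 and 14.65 on the HepG2 arrays and 14.79 and 14.89 on the SNU398 arrays, but its other probe gave a log2 difference of 3.15 and the gene is uncertain.

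Oncofetal and progenitor genes were also mostly higher in HepG2. Of 26 tested of 26 listed, 14 were called higher in HepG2 and 1 in SNU398 (3 without SNU398 replicate 2), with a median log2 difference of 1.40. DLK1, an imprinted surface protein of hepatoblasts, read 14.18 and 14.25 on the HepG2 arrays and 6.19 and 5.97 on the SNU398 arrays and was at least 152-fold higher (log2 difference 8.14, SE 0.16, adjusted p = 2.5e-26). KRT19, a keratin of bile ducts and progenitors, read 13.68 and 13.45 on the HepG2 arrays and 6.58 and 6.55 on the SNU398 arrays, a difference of at least 96.4-fold, and SOX9, a duct factor, was at least 34.3-fold higher. GPC3, a surface proteoglycan used to stain liver cancer, was above background in both lines, with 14.17 and 14.19 on the HepG2 arrays and 10.06 and 9.94 on the SNU398 arrays, and 18.1-fold higher in HepG2. CD24 was 39.5-fold higher and IGF2, the fetal growth factor, at least 4.35-fold. Its imprinted partner H19 was above background in neither line (6.16 and 6.68 on the HepG2 arrays and 6.13 and 6.37 on the SNU398 arrays). SALL4, a stem cell factor, ran the other way, with 6.18 and 6.62 on the HepG2 arrays and 9.50 and 9.47 on the SNU398 arrays, and was at least 5.7-fold higher in SNU398. The RNA-binding oncofetal genes IGF2BP2 (12.19 and 12.30 on the HepG2 arrays and 11.97 and 11.97 on the SNU398 arrays) and LIN28B (12.04 and 12.11 on the HepG2 arrays and 11.28 and 11.25 on the SNU398 arrays) were not called.

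WNT pathway genes were divided between the lines, both of which are known to carry activating changes of beta-catenin. Of 23 tested of 25 listed, 11 were called higher in HepG2 and 4 in SNU398, with a median log2 difference of 0.83 (0.74 to 1.40 over the alternative settings run). AXIN2, a general WNT target and feedback inhibitor, was above background in both, 12.63 and 12.83 on the HepG2 arrays and 13.98 and 14.00 on the SNU398 arrays, and 2.39-fold higher in SNU398 (log2 difference -1.26, SE 0.13, adjusted p = 7.8e-10). LEF1, a nuclear partner of beta-catenin, read 7.11 and 7.67 on the HepG2 arrays and 11.49 and 11.39 on the SNU398 arrays and was 16.5-fold higher in SNU398. The secreted inhibitors WIF1 (at least 3.48-fold) and SFRP1 (at least 2.58-fold) were also higher there, each with 1 HepG2 array above background. Other targets were higher in HepG2. SP5 read 11.96 and 11.69 on the HepG2 arrays and 6.21 and 6.23 on the SNU398 arrays, and was at least 28.9-fold higher. NKD1 was 25.8-fold higher, NOTUM 8.6-fold, and the secreted inhibitor DKK1, with 14.07 and 14.07 on the HepG2 arrays and 8.84 and 8.70 on the SNU398 arrays, 39.3-fold. MYC averaged 12.77 in HepG2 and 13.01 in SNU398, a log2 difference of -0.24. GLUL, a WNT target of pericentral hepatocytes, read 7.93 and 7.87 on the HepG2 arrays and 7.63 and 7.59 on the SNU398 arrays. Neither was called (adjusted p = 0.12 and 0.14).

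Epithelial genes were called higher in HepG2 more often than in SNU398. Of 35 tested of 44 listed junction and keratin genes, 21 were called higher in HepG2 and 2 in SNU398, with a median log2 difference of 1.27 (0.95 to 2.09 over the alternatives). KRT8, the keratin of simple epithelia, read 12.74 and 12.55 on the HepG2 arrays and 6.45 and 6.67 on the SNU398 arrays and was at least 51.1-fold higher in HepG2. CLDN1, a tight junction protein, was at least 31.5-fold higher, and the desmosomal cadherin DSG2, with 12.41 and 12.66 on the HepG2 arrays and 7.52 and 7.31 on the SNU398 arrays, 34.7-fold. CDH1, the cadherin that defines epithelia, was an exception. It read 8.97 and 8.99 on the HepG2 arrays and 8.43 and 8.45 on the SNU398 arrays, a log2 difference of 0.54 (SE 0.15, adjusted p = 0.002), below the 2-fold threshold. EPCAM, a surface protein of epithelia, was above background in both lines, 13.82 and 14.02 on the HepG2 arrays and 11.93 and 12.23 on the SNU398 arrays, and 3.58-fold higher in HepG2. SPINT2, an epithelial protease inhibitor, and CGN, the junction protein cingulin, were called the other way. SPINT2 read 6.67 and 6.47 on the HepG2 arrays and 11.20 and 11.10 on the SNU398 arrays, a difference of at least 18.1-fold, and CGN 7.04 and 7.58 on the HepG2 arrays and 10.56 and 10.63 on the SNU398 arrays, a difference of 9.77-fold.

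Mesenchymal genes were called in both directions. Of 45 tested of 47 listed, 11 were called higher in HepG2 and 15 in SNU398, and 19 were not called. The median log2 difference was -0.07 (-0.15 to 0.08 with 1 array left out), and -0.72 when genes at background in both lines were left out. VIM, the intermediate filament of mesenchymal cells, read 9.57 and 9.56 on the HepG2 arrays and 15.16 and 14.79 on the SNU398 arrays and was 42.4-fold higher (log2 difference -5.41, SE 0.13, adjusted p = 1.0e-24), and its other probe gave -8.24. TWIST1, a transcription factor of epithelial-mesenchymal transition, read 6.79 and 6.88 on the HepG2 arrays and 13.33 and 13.25 on the SNU398 arrays and was at least 79.6-fold higher (log2 difference -6.45, SE 0.14, adjusted p = 2.4e-25). ANXA1, a phospholipid-binding protein, read 6.19 and 6.09 on the HepG2 arrays and 13.66 and 13.69 on the SNU398 arrays, and MME, a surface peptidase, 5.96 and 5.73 on the HepG2 arrays and 12.17 and 12.20 on the SNU398 arrays. Their differences were at least 104-fold and at least 36.9-fold. The factor ZEB2 read 6.17 and 6.23 on the HepG2 arrays and 9.05 and 8.94 on the SNU398 arrays, while ZEB1 was above background in neither line (5.98 and 6.28 on the HepG2 arrays and 6.30 and 6.09 on the SNU398 arrays). The receptor kinase AXL, 8.98 and 8.72 on the HepG2 arrays and 11.10 and 10.90 on the SNU398 arrays, was 4.42-fold higher in SNU398.

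The 11 mesenchymal genes higher in HepG2 include TGFBI, a matrix protein that TGF-beta induces, which read 13.73 and 13.95 on the HepG2 arrays and 6.80 and 6.73 on the SNU398 arrays and was at least 116-fold higher. ACTA2, the smooth muscle actin of myofibroblasts, read 13.19 and 13.19 on the HepG2 arrays and 8.70 and 8.85 on the SNU398 arrays, 21.3-fold higher. The calcium-binding S100A6 was 18.9-fold higher, the collagen cross-linking enzyme LOX at least 12.8-fold and fibronectin, FN1, at least 3.47-fold. CDH2, the cadherin of mesenchymal cells that liver cells also make, was above background in both, with 11.84 and 12.13 on the HepG2 arrays and 12.06 and 12.36 on the SNU398 arrays. The arrays of the lines overlap and CDH2 was not called (log2 difference -0.22, SE 0.14, adjusted p = 0.19).

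Matrix and adhesion genes were called in both directions. Of 39 tested of 42 listed collagens, laminins and integrins, 9 were called higher in HepG2 and 8 in SNU398, with a median log2 difference of -0.09 (-0.17 to 0.01 with 1 array left out). Of the 8 higher in SNU398, 6 encode collagens. COL11A1, a fibrillar collagen of cartilage, read 6.05 and 5.74 on the HepG2 arrays and 12.44 and 12.37 on the SNU398 arrays. It was at least 43.2-fold higher in SNU398, with log2 differences of -3.72 and -0.28 at its other probes. COL3A1, of loose connective tissue, read 6.81 and 6.54 on the HepG2 arrays and 12.83 and 12.71 on the SNU398 arrays, a difference of at least 55.6-fold, and COL5A2 7.25 and 7.68 on the HepG2 arrays and 12.52 and 12.43 on the SNU398 arrays, a difference of 32.2-fold. The main fibrillar collagen of scar, COL1A1, was not called (6.84 and 6.68 on the HepG2 arrays and 7.07 and 7.05 on the SNU398 arrays), and COL1A2 was at background in both lines. The genes higher in HepG2 include the basement membrane laminin LAMB1 (6.62-fold), the endostatin precursor COL18A1 (6.21-fold) and the integrins ITGB5 (6.96-fold) and ITGA2 (5.36-fold). Another COL18A1 probe gave a log2 difference of only 0.06, and other ITGB5 probes gave 0.35 to 2.85.

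**Figure D3:**
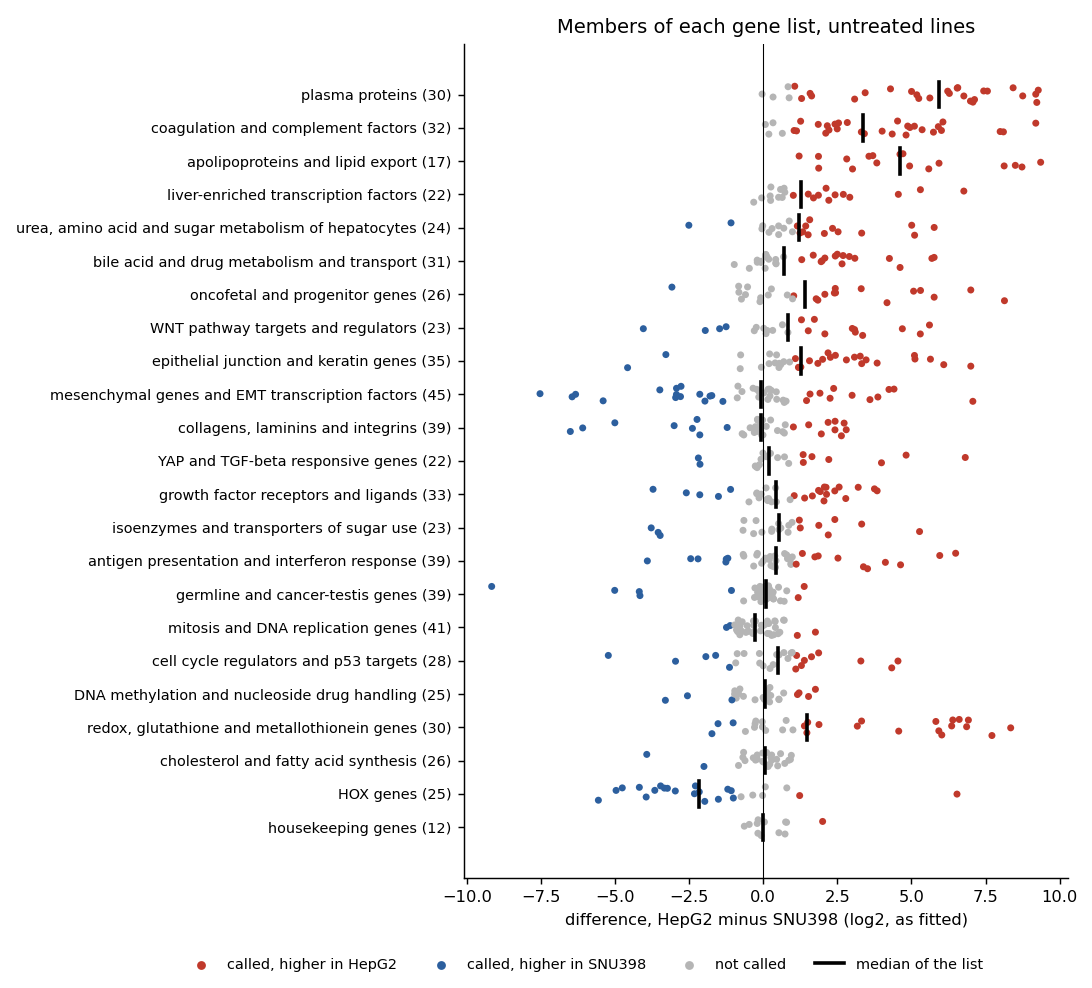
Each point is a tested member of a gene list, placed by its fitted log2 difference (HepG2 minus SNU398) on the x axis. The number of tested members follows each list name, colours give the call and the black bar is the median of the list. Plasma proteins (median 5.92), coagulation and complement factors (3.36) and apolipoproteins (4.61) lie to the right, HOX genes (-2.16) to the left, and mesenchymal genes (-0.07) spread both ways.

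Of 22 tested of 27 listed YAP and TGF-beta responsive genes, 7 were called higher in HepG2 and 2 in SNU398, with a median log2 difference of 0.19 (0.12 to 0.37 with 1 array left out and 0.12 to 0.60 over the alternatives). The TGF-beta receptor TGFBR2 read 13.09 and 13.21 on the HepG2 arrays and 6.29 and 6.39 on the SNU398 arrays and was at least 72.4-fold higher in HepG2. The matricellular protein CCN2, with 14.03 and 14.08 on the HepG2 arrays and 9.19 and 9.29 on the SNU398 arrays, was 28.2-fold higher and ANKRD1 at least 12.3-fold. The ligand TGFB2 (6.58 and 6.32 on the HepG2 arrays and 8.69 and 8.47 on the SNU398 arrays) and PMEPA1 (7.17 and 6.69 on the HepG2 arrays and 9.12 and 9.13 on the SNU398 arrays), an inhibitor that TGF-beta induces, were higher in SNU398 by at least 3.05-fold and at least 4.14-fold, with 1 HepG2 array above background for PMEPA1. YAP1 itself read 11.15 and 11.27 on the HepG2 arrays and 10.78 and 11.16 on the SNU398 arrays and was not called.

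Growth factor receptors and ligands were called higher in HepG2 more often than in SNU398. Of 33 tested of 42 listed receptors and ligands, 15 were called higher in HepG2 and 5 in SNU398, with a median log2 difference of 0.44 (0.67 without HepG2 replicate 1 and 0.25 to 1.22 over the alternatives). ERBB3, the kinase-impaired partner of ERBB2, read 12.50 and 12.59 on the HepG2 arrays and 8.67 and 8.74 on the SNU398 arrays and was 14.3-fold higher. FGFR3 read 13.42 and 13.37 on the HepG2 arrays and 10.30 and 10.09 on the SNU398 arrays, 9.21-fold higher in HepG2. Its other probe gave a log2 difference of only 0.16. TGFA, a ligand of the epidermal growth factor receptor, was at least 9.13-fold higher in HepG2. FGFR4 and its co-receptor KLB together receive the hormone FGF19 in liver. FGFR4 read 11.03 and 11.02 on the HepG2 arrays and 8.44 and 8.49 on the SNU398 arrays, 5.89-fold higher in HepG2. KLB read 10.29 and 10.31 on the HepG2 arrays and 7.29 and 7.74 on the SNU398 arrays, 6.88-fold higher in HepG2, while FGF19 lay at the threshold in both lines (7.08 and 6.93 on the HepG2 arrays and 7.17 and 6.98 on the SNU398 arrays). The main vascular growth factor VEGFA was 2.06-fold higher in HepG2. VEGFC, which acts on lymphatic vessels, read 7.69 and 7.26 on the HepG2 arrays and 11.37 and 11.03 on the SNU398 arrays and was 13.2-fold higher in SNU398, and PDGFC, a mitogen of fibroblasts, was 6.06-fold higher there.

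Genes of the cell cycle machinery were called at a share of 9.76%, against 24.3% of all genes. Of 41 tested of 42 listed mitosis and replication genes, 2 were called higher in HepG2 and 2 in SNU398, and 37 were not called. The median log2 difference was -0.26. At an unadjusted limma p under 0.05, 11 were higher in HepG2 and 21 in SNU398, against 4349 and 5055 of all 15297 genes. CDK1, the mitotic kinase, and UBE2C, which marks cyclins for destruction, were higher in SNU398 (2.37-fold and 2.18-fold), and RRM2, which makes deoxynucleotides, and the kinase PLK1 in HepG2 (3.38-fold and 2.22-fold). Of 28 tested of 33 listed cell cycle regulators and p53 targets, 9 were called higher in HepG2 and 5 in SNU398, with a median log2 difference of 0.49. CDKN1A, the inhibitor p21, read 13.25 and 13.29 on the HepG2 arrays and 8.76 and 8.70 on the SNU398 arrays and was 23.3-fold higher in HepG2 (log2 difference 4.54, SE 0.14, adjusted p = 3.4e-22). GDF15, a stress cytokine, was 20.2-fold higher, the pore protein BAX 9.79-fold and PHLDA3 3.65-fold, all known targets of p53. CCND2, a D-type cyclin, read 8.55 and 8.74 on the HepG2 arrays and 14.01 and 13.74 on the SNU398 arrays and was 37.5-fold higher in SNU398. The inhibitors CDKN2A and CDKN2B, neighbours on chromosome 9, were both higher in SNU398. CDKN2A read 8.57 and 8.24 on the HepG2 arrays and 11.37 and 11.37 on the SNU398 arrays, 7.79-fold apart, and CDKN2B 8.05 and 7.98 on the HepG2 arrays and 9.88 and 10.03 on the SNU398 arrays, 3.83-fold apart.

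Some isoenzymes of sugar breakdown were called in opposite directions. Of 23 tested of 28 listed genes, 7 were called higher in HepG2 and 3 in SNU398, with a median log2 difference of 0.53. The glucose transporter SLC2A1 read 13.91 and 14.07 on the HepG2 arrays and 8.72 and 8.71 on the SNU398 arrays and was 38.7-fold higher in HepG2. Hexokinase 2, HK2, was 5.33-fold higher in HepG2, with 11.50 and 11.38 on the HepG2 arrays and 9.13 and 8.92 on the SNU398 arrays, whereas hexokinase 1, HK1, was 11.7-fold higher in SNU398, with 9.40 and 9.15 on the HepG2 arrays and 12.93 and 12.71 on the SNU398 arrays. The muscle phosphofructokinase PFKM was 11.2-fold higher in SNU398. PFKP was also called higher there, but another of its probes gave a log2 difference of 0.05. The other HK1 probe gave only -0.33, and the other HK2 probe gave 1.22.

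Redox genes and metallothioneins were mostly higher in HepG2. Of 30 tested of 34 listed, 17 were called higher in HepG2 and 3 in SNU398, with a median log2 difference of 1.48. GPX2, a glutathione peroxidase, read 14.85 and 14.94 on the HepG2 arrays and 6.55 and 6.54 on the SNU398 arrays and was at least 242-fold higher in HepG2 (log2 difference 8.35, SE 0.16, adjusted p = 1.1e-26). NQO1, a quinone reductase, read 14.24 and 14.26 on the HepG2 arrays and 7.90 and 7.80 on the SNU398 arrays and was 84.1-fold higher (log2 difference 6.39, SE 0.13, adjusted p = 2.1e-26), with 2.50 at its other probe. CYBA, a subunit of NADPH oxidase, read 13.90 and 13.67 on the HepG2 arrays and 6.88 and 6.96 on the SNU398 arrays, and MGST2, a microsomal transferase, 13.95 and 13.87 on the HepG2 arrays and 6.96 and 7.01 on the SNU398 arrays, with 1 SNU398 array above background. Their lower bounds were 112-fold and 121-fold. The metallothioneins MT1G (at least 179-fold) and MT1E (97.7-fold), which bind zinc and copper, were higher in HepG2. Metallothionein probes may bind near-identical transcripts of the family, as may those of the AKR1C and IFITM families, and another MT1E probe gave only 0.86. HMOX1, which breaks down haem, ran the other way, with 9.95 and 9.84 on the HepG2 arrays and 11.64 and 11.62 on the SNU398 arrays, and was 3.33-fold higher in SNU398. The glutamate-cysteine ligase subunits GCLC and GCLM, which set glutathione synthesis, were not called (log2 differences -0.03 and 0.08).

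Antigen presentation and interferon genes were called in both directions. Of 39 tested of 44 listed, 11 were called higher in HepG2 and 6 in SNU398, with a median log2 difference of 0.41 (0.32 to 0.72 over the alternatives). IFITM2 and IFITM3 are membrane proteins that block virus entry. IFITM2 read 14.10 and 13.81 on the HepG2 arrays and 7.43 and 7.49 on the SNU398 arrays, 89.9-fold higher in HepG2. IFITM3 read 13.39 and 13.47 on the HepG2 arrays and 7.42 and 7.53 on the SNU398 arrays, 62-fold higher, and the probes may share signal. BST2, tetherin, was at least 21.9-fold higher in HepG2 with 1 SNU398 array above background, and CD74, the invariant chain of MHC class II, at least 17.1-fold. HERC5, the ligase for ISG15, read 6.85 and 7.05 on the HepG2 arrays and 10.84 and 10.88 on the SNU398 arrays and was at least 14.4-fold higher in SNU398, with 1 HepG2 array above background. The RNA sensor IFIH1 (4.61-fold) and HLA-B (5.46-fold) were also higher in SNU398. HLA probes can bind alleles unequally, and the part of this in the HLA-B value was not tested. B2M, the light chain of MHC class I, read 13.45 and 13.39 on the HepG2 arrays and 13.19 and 12.87 on the SNU398 arrays and was not called.

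GAGE genes, of the germline, were at background in HepG2 and high in SNU398. Of 39 tested of 44 listed germline and cancer-testis genes, GAGE12C among them, 2 were called higher in HepG2 and 5 in SNU398, and 32 were not called, most of them at background in both lines. The median log2 difference was 0.08 (0.04 to 0.14 over the alternatives), and the 2 higher in HepG2 became 1 or 4 under another background correction or probe rule. GAGE4 read 6.67 and 6.64 on the HepG2 arrays and 15.96 and 15.84 on the SNU398 arrays and was at least 487-fold higher in SNU398 (log2 difference -9.25, SE 0.15, adjusted p = 3.6e-28). The probes of GAGE12J, GAGE12G, GAGE12C, GAGE12B, GAGE12H, GAGE2A, GAGE12F and GAGE7 gave lower bounds from 141-fold to 442-fold in the same direction. These genes form a tandem array on chromosome X with near-identical transcripts, so the probes are not independent and the copy that is expressed cannot be told. PRAME, a germline antigen on another chromosome, read 6.77 and 6.74 on the HepG2 arrays and 11.97 and 11.56 on the SNU398 arrays and was at least 27.8-fold higher in SNU398. CT45A1 was at least 11.5-fold and the helicase DDX43 at least 14.6-fold higher. Other CT45A1 probes gave log2 differences of -1.62 and -0.46. MAGEA1, MAGEA4 and MAGEC2 were at background in both lines, and MAGEA12, 8.39 and 8.20 on the HepG2 arrays and 6.80 and 7.02 on the SNU398 arrays, was called higher in HepG2 (at least 2.45-fold, 1 SNU398 array above background), with a probe that may bind other MAGEA transcripts, and lost the call with the mean of its probes (log2 difference 0.80).

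HOX genes, transcription factors that give cells position along the body axis, were mostly higher in SNU398. Of 25 tested of 36 listed genes, 1 of them in the A cluster, 2 were called higher in HepG2 and 18 in SNU398, with a median log2 difference of -2.16 (-1.85 with bounds). 22 were above background in SNU398 and 8 in HepG2. HOXC6 read 8.04 and 7.81 on the HepG2 arrays and 13.48 and 13.50 on the SNU398 arrays and was 47.4-fold higher (log2 difference -5.57, SE 0.15, adjusted p = 3.3e-23), with -1.88 and -0.80 at its other probes. HOXC8 read 6.65 and 7.08 on the HepG2 arrays and 11.74 and 11.52 on the SNU398 arrays, at least 24.2-fold higher. HOXB7 read 6.28 and 6.28 on the HepG2 arrays and 11.21 and 11.29 on the SNU398 arrays, at least 19.4-fold higher. HOXD11 averaged 6.83 in HepG2 and 11.01 in SNU398, at least 16.3-fold higher. The arrays of the lines lie far apart for all 3, though HOXC8 and HOXD11 each had 1 HepG2 array above background. The 3′ end of the HOXD cluster ran the other way. HOXD1 read 13.38 and 13.50 on the HepG2 arrays and 7.25 and 6.57 on the SNU398 arrays and was at least 80.7-fold higher in HepG2 with 1 SNU398 array above background (log2 difference 6.54, SE 0.16, adjusted p = 3.6e-24). HOXD4, 8.08 and 7.55 on the HepG2 arrays and 6.52 and 6.65 on the SNU398 arrays, was also called higher in HepG2 (at least 1.79-fold), a call lost without HepG2 replicate 1 (log2 difference 0.96) and without background correction (0.91). HOXD3, between them, read 7.71 and 8.29 on the HepG2 arrays and 7.13 and 7.28 on the SNU398 arrays and was not called, and every tested HOXD gene from HOXD8 to HOXD13 was called higher in SNU398. HOXB6 was above background in both lines and not called (8.01 and 8.13 on the HepG2 arrays and 7.92 and 8.09 on the SNU398 arrays).

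**Figure D4:**
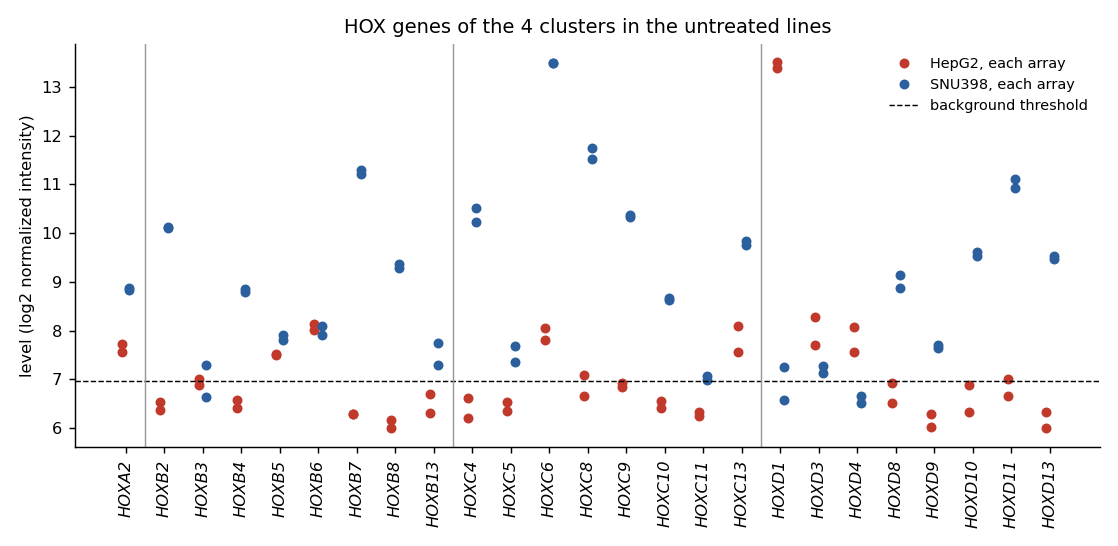
Tested HOX genes are ordered by cluster (A to D, separated by grey lines) and by number, with each array as a point (red, HepG2, blue, SNU398) in log2 normalized intensity and the background threshold dashed. SNU398 is higher at 18 genes over all 4 clusters, and HOXD1 is the gene where HepG2 is far above SNU398.

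Genes outside the lists were also among the 10 largest calls or the 10 largest bounds of a direction, ranked separately. In HepG2, LYZ, lysozyme, read 15.11 and 15.11 on the HepG2 arrays and 6.46 and 6.37 on the SNU398 arrays and was at least 282-fold higher, with 5.02 at its other probe. DHRS2, a short-chain dehydrogenase, read 14.19 and 14.22 on the HepG2 arrays and 7.48 and 7.81 on the SNU398 arrays, 94.7-fold higher. AKR1C4, a liver reductase of steroids, was 82.8-fold higher, with 0.50 at its other probe, and SNORC 77.8-fold. CD81, a tetraspanin that serves as an entry receptor for hepatitis C virus and that HepG2 is known to lack, read 6.54 and 6.33 on the HepG2 arrays and 14.05 and 14.01 on the SNU398 arrays. CD81 was at least 133-fold higher in SNU398 and at background in HepG2 (log2 difference -7.60, SE 0.14, adjusted p = 3.4e-27). BASP1, a membrane protein of growing axons, read 7.21 and 7.41 on the HepG2 arrays and 13.16 and 13.26 on the SNU398 arrays and was 59.8-fold higher. DUSP23, a phosphatase (35.8-fold), DPP7, a lysosomal peptidase (26.4-fold), RRAGD, a GTPase of amino acid sensing (25.4-fold), NBDY, a microprotein of P-bodies (24.3-fold), and GSTO2, a glutathione transferase (22.7-fold), were among the 10 largest calls in SNU398 of genes above background in both lines.

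Genes on which SGI-110 is known to act or depend were called in both directions, at a share near that of all genes (28% against 24.3%). Of 25 tested of 30 listed genes of DNA methylation and nucleoside handling, 4 were called higher in HepG2 and 3 in SNU398 (7 in SNU398 without HepG2 replicate 2), and 18 were not called. At an unadjusted limma p under 0.05, 7 were higher in HepG2 and 10 in SNU398, and the median log2 difference was 0.06 (-0.02 to 0.14 over the alternatives). DNMT1, the maintenance methyltransferase that the drug traps, read 12.97 and 13.05 on the HepG2 arrays and 13.22 and 13.35 on the SNU398 arrays, a log2 difference of -0.28 (SE 0.13, adjusted p = 0.074), and was not called. Its partner UHRF1 read 11.88 and 12.14 on the HepG2 arrays and 12.08 and 11.82 on the SNU398 arrays and was not called. The kinase DCK, which activates deoxycytidine analogues, read 9.75 and 9.68 on the HepG2 arrays and 10.49 and 10.53 on the SNU398 arrays. The DCK arrays do not overlap (log2 difference -0.79, SE 0.14, adjusted p = 1.4e-05), below the 2-fold threshold, and its other probe gave 0.63, in the other direction. CDA, the deaminase that inactivates such analogues, read 8.10 and 7.74 on the HepG2 arrays and 6.37 and 6.42 on the SNU398 arrays and was at least 1.93-fold higher in HepG2. The nucleoside transporter SLC29A2, 7.08 and 7.26 on the HepG2 arrays and 10.47 and 10.48 on the SNU398 arrays, was 9.88-fold higher in SNU398, and adenosine deaminase, ADA, 5.9-fold.

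Genes of cholesterol and fatty acid synthesis were called at a share of 7.69%, against 24.3% of all genes. Of 26 tested of 30 listed genes, 0 were called higher in HepG2 by limma (1 without HepG2 replicate 1, and 8 at an unadjusted p under 0.05) and 2 in SNU398, with a median log2 difference of 0.06 (0.04 to 0.18 over the alternatives). INSIG1, the sterol sensor that holds back this pathway, read 8.58 and 8.50 on the HepG2 arrays and 12.40 and 12.54 on the SNU398 arrays and was 15.3-fold higher in SNU398, and the mevalonate enzyme PMVK 4.01-fold. Of 12 tested of 15 listed housekeeping genes, with a median log2 difference of -0.02, 1 was called, the transferrin receptor TFRC (4-fold higher in HepG2). GAPDH read 14.85 and 14.83 on the HepG2 arrays and 14.15 and 14.06 on the SNU398 arrays and TBP 10.49 and 10.26 on the HepG2 arrays and 10.32 and 10.36 on the SNU398 arrays, and neither was called.

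The lines were checked against markers of liver cell types, with intensities summed over a list only to set the same probes of 1 line against the other. All 6 tested hepatocyte markers (ALB, APOA1, TTR, SERPINA1, FGB and TF) were called higher in HepG2, and their summed intensity was 244339 and 243940 on the HepG2 arrays against 1124 and 1250 on the SNU398 arrays. Only ALB, APOA1 and SERPINA1 were above background on both SNU398 arrays, so most hepatocyte markers were absent or dim in the line labelled hepatocellular carcinoma SNU398. Of 6 cholangiocyte markers, KRT19, SOX9 and SPP1 were called higher in HepG2 and none was above background in SNU398, with sums of 29424 and 29226 against 560 and 608. Stellate cell or fibroblast markers had sums of 10351 and 10373 against 12528 and 12432. Of 9, PDGFRB and ACTA2 were called higher in HepG2 and COL3A1, DCN and LUM in SNU398. ACTA2 made up most of the HepG2 sums and COL3A1 most of the SNU398 sums. The 3 tested endothelial markers were above background in neither line. Of 7 blood cell markers, 3 were called higher in HepG2 (CD14, FCER1G and LYZ), with sums of 37867 and 38005 against 3186 and 3048. LYZ alone made up most of the HepG2 sums, and CD68 and HBB were lower in HepG2 and not called. Of 8 neural markers, SYP, CHGA and MAP2 were called higher in SNU398, with sums of 14824 and 12870 against 15466 and 16823. Most of each sum came from TUBB3, which was not called.

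The genes that separate the untreated lines were followed in cells treated with SGI-110. Of the 1512 genes above background in untreated SNU398 only, 294 (19.4%) were above background in HepG2 at day 3, 376 (24.9%) at day 10, 362 (23.9%) at day 17 and 333 (22%) at day 24. On the same days 14%, 20.1%, 20.7% and 16.8% of the 2290 genes at background in both untreated lines were above background. On all 4 days the shares were 8% (121 genes) and 3.89%. Of the 1378 genes above background in untreated HepG2 only, 329 (23.9%), 391 (28.4%), 359 (26.1%) and 333 (24.2%) were above background in treated SNU398 on those days, against 18.1%, 23.4%, 20.7% and 18.2% of the genes at background in both. On all 4 days the shares were 10.2% (141 genes) and 6.77%. The 2290 genes at background in both lines were kept only because a treated group or SNU475 exceeded background. This raises their shares by construction, and genes dim in every group are left out. Treated SNU398 arrays lie on another deposited scale than untreated ones, no treated day has an untreated array of its own, and these shares were not tested.

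Among the SNU398 genes found in HepG2 on every treated day, GAGE4 read a mean level of 6.65 in untreated HepG2, 11.56 at day 10 and 10.45 at day 24, against 15.90 in untreated SNU398. PRAME read 6.75 untreated, 7.85 at day 3 and 9.40 at day 24, against 11.77 in SNU398. NDN, an imprinted gene of neurons, read 6.55 untreated and 9.38 at day 10. In SNU398, CYBA read 6.92 untreated, 11.24 at day 3 and 11.08 at day 24, against 13.78 in untreated HepG2. CRIP1, a LIM domain protein, read 6.87 untreated and 11.61 at day 10, and MT1G 6.74 untreated and 8.75 at day 17, against 14.46 in HepG2. Each stayed below its level in the other untreated line on all 4 days. These genes were picked after their values were seen, as those with the largest bounds.

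**Figure D5:**
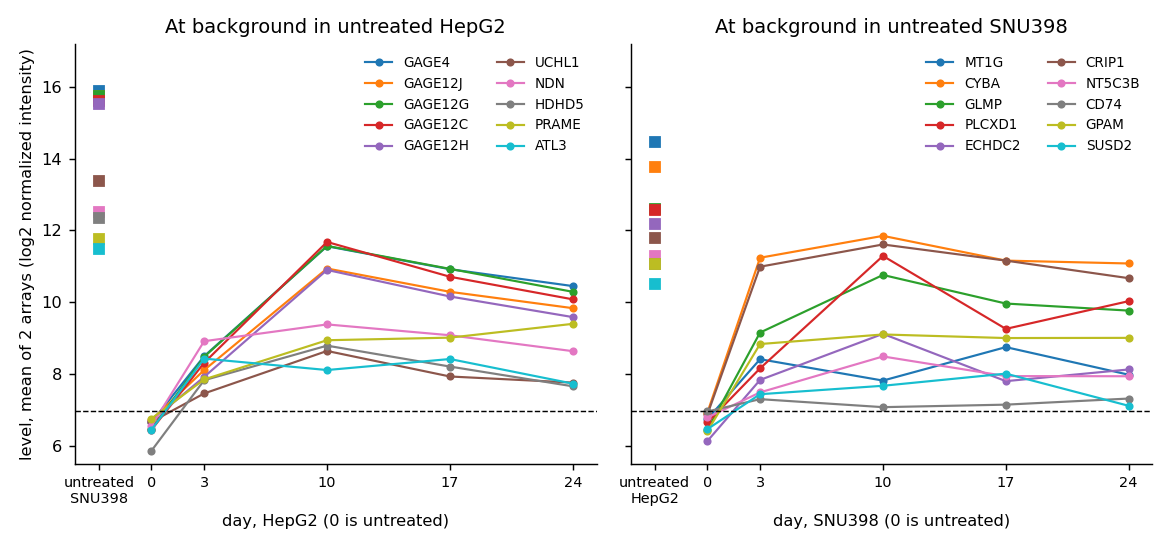
For 10 genes at background in untreated HepG2 (left) and 10 at background in untreated SNU398 (right), all picked from those above background on every treated day, lines follow the mean level of 2 arrays in log2 normalized intensity over days of the treated line, with day 0 untreated. Squares give the untreated level in the other line and the dashed line the background threshold. Points of days 3 to 24 lie above the threshold by that choice, and all lie below the squares.

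The genes above background in only 1 of the lines were looked up in untreated SNU475, whose arrays lie on another deposited scale. Of the 1378 genes of HepG2, 655 (47.5%) were above background there, and of the 1512 genes of SNU398, 778 (51.5%). The share was 95% of the 10117 genes above background in both lines, 34.8% of the 2290 above background in neither and 77.4% of all genes. The 2290 genes were kept only through SNU475 or a treated group, which raises their share by construction.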

How the data were processed

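RNA of 34 arrays was measured, of which the 4 untreated HepG2 and SNU398 arrays are compared here. Each deposited array file lists linear intensities of 47230 probes, already scaled by the authors in a way not given in the sources used here. A deposited table of 72 columns named by array barcode could not be matched to samples and was not used. Intensities of all 34 arrays were background corrected (normexp, offset 50), quantile normalized and put on the log2 scale. The background threshold, 6.974, lies 1.645 spreads (0.2981) above the mode (6.484) of the averaged sorted arrays, with the spread taken below that mode. It replaced detection p-values. Probes above it in at least 1 of 17 groups were kept.

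The platform annotation gives 1 gene symbol for 30113 probes, several for 8 and none for 17109, and 30074 of those with 1 symbol matched RefSeq (GRCh38.p14). The brightest kept probe stood for a gene, 15297 in all, and 4335 genes had more than 1 kept probe. Of 1005 called genes with another probe above background, 927 had every other probe on the same side and 10 had one at least 2-fold the other way.

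A mean per group was fitted in limma 3.58.1 (R 4.3.3) over the 34 arrays, with 17 residual and 10.86 prior degrees of freedom. P-values are two-sided, adjusted by Benjamini-Hochberg over all genes. The fit was tested on simulated data. Named genes are a chosen panel, the 10 largest calls and the 10 largest bounds in each direction and up to 4 called members of a list in each direction; other list members were named after their values were seen. The members and lists were chosen with earlier results of these data known. Some listed genes are not reported here. Alternatives covered background correction, normalization, filter, probe choice, arrays in the fit, the replicate number and leaving out each array.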

Additional observations from a re-analysis of the deposited data

How the results depend on the processing

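The calls of 1802 genes higher in HepG2 and 1908 in SNU398 went to 1554 and 1618 without background correction, to 2022 and 2200 with an offset of 16, to 1796 and 1880 without normalization between arrays or with median scaling, and to 1717 and 1759 with the mean of all probes. Requiring signal in both untreated lines left 10081 genes and 1047 and 1075 calls, because fewer genes were tested. Leaving out 1 of the 4 arrays gave 1798 to 1837 and 1885 to 1955. A fit of the 4 arrays alone, or of the groups on the same deposited scale, gave the same counts. These fits, and one with a replicate block, leave the fitted differences unchanged by construction. Only the p-values could move their counts, and they did not. With the replicate number as a replicate block the counts were 1802 and 1908, and the numbers do not pair the samples (the deviations of same-numbered arrays correlate at -0.0111). The share of calls that were higher in HepG2 stayed between 47.9% and 49.4%.

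Genes above background in HepG2 only numbered 1116 to 1737 and in SNU398 only 1202 to 1858 with 1 array left out, and 1209 and 1213 with a threshold 1 log2 unit higher. Leaving out an array of a line raises that line's count by construction, since 1 array then decides. Of 165 named genes, none that was called changed sign under any alternative run. The signs of genes that were not called, such as FGF19, were left out of this count. A call was lost at least once for 9 (AJUBA, DNMT3L, FGF2, GSTA4, HOXD4, MAGEA12, NAGS, SSX4 and TDG), all within 2-fold then, and the cause was not tested. Among the lists, 26 counts or medians moved by more than a set margin under at least 1 alternative, in 83 entries against 676 that stayed within it. For example, germline genes higher in HepG2 went from 2 to 1 or 4, HOX genes higher in HepG2 from 2 to 1 and housekeeping genes higher in HepG2 from 1 to 2 under another background correction or probe rule. The median of the bile acid and drug list went from 0.69 to 2.03 when genes at background in both lines were left out. With 2 arrays per line and signals near background, differences of dim genes are bounds.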

Other observations

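Median differences varied between chromosomes. Among genes above background in at least 1 line, the 426 on chromosome 14 had the lowest median log2 difference, -0.43. Of these, 37 (8.69%) were called higher in HepG2 and 106 (24.9%) in SNU398, against 11.8% and 12.5% of all genes tested. Chromosomes 10, 15 and 19 followed with medians of -0.29, -0.27 and -0.23. At the other end, the 176 genes of chromosome 18 had a median of 0.23, with 41 (23.3%) called higher in HepG2 and 19 (10.8%) in SNU398. Next were chromosomes 3 (0.16, with 120, 16.6%, and 66, 9.12%), 17 (0.10, with 116, 14.8%, and 71, 9.06%) and 16 (0.09, with 118, 19.7%, and 58, 9.7%). All genes tested include those at background in both lines, which the chromosome shares leave out. Chromosome 14 carries SERPINA1 and SERPINA3, which run against this shift. These medians are descriptions without a test, and copy number was not measured here.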
